A study of Mus musculus with 12 samples.

Results

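The 10 genes described here bind heme, break it down, or store and move the iron that it releases: Hebp1, Hebp2, Hmox1, Hmox2, Blvra, Blvrb, Fth1, Ftl1, Tfrc and Slc40a1. They were matched by Ensembl identifier to mouse symbols among the 41388 genes in the deposited count tables. All 10 passed the filter on low counts in each fit. The list is built around Hebp2, which was chosen by its measured difference between knockout and wild-type astrocytes in these same libraries, and the other 9 by their known roles. Values of the 10 genes in that comparison are therefore a description, with no test.

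Heme is opened by the heme oxygenases, which release iron, carbon monoxide and biliverdin, and the biliverdin reductases turn biliverdin into bilirubin. Free iron is stored in ferritin, a shell of heavy and light chains, and leaves the cell through ferroportin, while iron bound to transferrin enters through the transferrin receptor. Much of this control acts after transcription, when iron regulatory proteins bind a hairpin in the messenger RNA called the iron-responsive element. Where the hairpin acts on translation this is not seen in read counts, whereas an effect on messenger RNA decay can be.

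RNA sequencing covered 12 libraries from the brains of 8 mice at 7 months of age. All mice carried floxed Bmal (Bmal fl/fl; official symbol Arntl, which encodes a transcription factor at the core of the circadian clock) on C57BL/6, were kept on a light and dark cycle, and were given tamoxifen by gavage, 2 mg a day for 5 days, at 2 months. Knockouts (aKO, numbers 203, 205, 208, 221 and 222) also carried ALDH1L1-CreERT2, a Cre recombinase that tamoxifen switches on in cells using the astrocyte gene Aldh1l1, whereas wild types (WT, numbers 201, 202 and 265) had no Cre. Brains were digested with collagenase and magnetic beads against ACSA-2, an astrocyte surface antigen, held back the astrocyte fraction of all 8 mice, while the cells that ran through (flowthrough) were sequenced from WT 201 and 202 and aKO 203 and 205. The titles of the flowthrough libraries carry a letter b of unstated meaning, so what it marks cannot be told apart from the fraction. Astrocyte library 202 is WT by its title and knockout by its genotype field, and stayed with the WT group, since the flowthrough of that number and the sample numbers of the design also give WT.

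Library totals ran from 21816637 to 62655238 counts in astrocytes and from 33019572 to 53868165 in flowthrough. Arntl had 3.50, 6.80 and 2.13 CPM (counts scaled to the library total) in WT astrocytes and 10.5, 25.0, 8.99, 12.5 and 5.05 CPM in aKO astrocytes, in the order of the numbers above, so it was not lower in the libraries labelled aKO. The count covers the whole gene but which exons were floxed is not given in the sources used here, and this level does not check the deletion. Microglial markers summed to 315 to 724 CPM in astrocytes and 5864 to 11103 CPM in flowthrough, and all 10 were lower in astrocytes in edgeR's quasi-likelihood test (Benjamini-Hochberg adjusted). Of 9 astrocyte markers 8 were higher in astrocytes (2678 to 13936 against 191 to 4878 CPM), as were 6 of 8 oligodendrocyte and 3 of 6 neuronal markers. Of the 9 erythroid markers tested 8 were lower in astrocytes (200 to 1838 against 3292 to 13768 CPM), and so were 7 of 7 leukocyte markers. Choroid plexus markers, mostly Ttr, summed to 14291 to 177055 CPM in astrocytes and 89488 to 334376 CPM in flowthrough, and 0 of 7 differed. Their sum exceeded that of the astrocyte markers in every astrocyte library, and was highest there in WT 265. Flowthrough library aKO 205 stood apart: Gapdh was at 203 CPM against 694 to 1433 CPM in the other 11 libraries. Ttr took 320720 CPM in it, against 11967 to 197818 CPM in the other 11. It held the lowest CPM of all 12 libraries for 5 of the 10 genes and for 29.5% of the 9442 genes with a mean of at least 8 CPM. Test values without it are given below for each of the 10 genes, and calls without it for the pathway genes. In bulk RNA, fewer cells of a type and less RNA per cell cannot be told apart.

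Hebp2 encodes a small heme-binding protein of the SOUL family, and lies on chromosome 10 from 18540123 to 18546076 (GRCm38, minus strand). Hebp1, its relative, binds heme and is the source of a chemotactic peptide, and lies on chromosome 6 from 135137519 to 135168215 (minus strand), where it overlaps the small nucleolar RNA gene Gm22881. Their upstream sequences are shown because the gene deleted in these mice encodes a factor that binds the E-box CACGTG. The 250 bases before the RefSeq start site (GRCm38.p6) are chr6:135168216-135168465 for Hebp1 and chr10:18546077-18546326 for Hebp2, both on the minus strand and printed 5′ to 3′, with the E-box in capitals.
Hebp1: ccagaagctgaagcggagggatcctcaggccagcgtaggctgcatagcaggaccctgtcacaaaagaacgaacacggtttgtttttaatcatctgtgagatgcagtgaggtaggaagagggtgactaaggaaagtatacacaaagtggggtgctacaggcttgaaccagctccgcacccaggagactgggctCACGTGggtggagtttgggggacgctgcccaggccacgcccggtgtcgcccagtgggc
Hebp2: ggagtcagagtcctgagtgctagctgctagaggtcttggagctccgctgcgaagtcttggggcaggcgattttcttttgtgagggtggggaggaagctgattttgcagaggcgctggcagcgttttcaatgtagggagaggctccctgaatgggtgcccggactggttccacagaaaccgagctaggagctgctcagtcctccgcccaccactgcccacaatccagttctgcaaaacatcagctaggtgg

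Hebp1 has 1 E-box, at position -58 from the start site, and these letters are not in the window of Hebp2. RefSeq start sites were matched for 8 of the 10 genes (not Hmox1 and Slc40a1), with 13 windows in all, and no other window held the E-box. Of all 32851 mouse windows of this length, 6.02% held it. The D-box TTATGNAA, bound by clock output factors, was in none of the 13 windows and in 3.07% of all windows. The antioxidant response element TGACNNNGC was in 1 of them, at position -49 of Blvra, and in 10.2% of all windows. Both strands were searched, with overlaps between motifs allowed, and a match is a description of the letters only.

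In WT astrocytes Hebp2 had 4.05, 3.65 and 2.93 CPM (201, 202 and 265). In aKO astrocytes it had 34.1, 17.6, 18.9, 41.4 and 20.6 CPM (203, 205, 208, 221 and 222). All 5 aKO libraries lay above all 3 WT libraries, by 4.34-fold over the highest WT library in aKO 205 and by 10.2-fold in aKO 221. The fitted difference was 2.78 on the log2 scale (SE 0.41), or 6.88-fold, and it ranged from 2.53 to 2.96 over 16 other settings. It was past the threshold in 8 of these 16, and not in the 8 others: without WT 201, WT 202, WT 265, aKO 203 or aKO 221, without aKO 222 and WT 265 together, with library 202 as aKO, and with all 12 libraries in 1 fit. Hebp2 was the only one of the 10 genes called in this comparison, in which 0.0264% of 18950 genes were called, and the only one whose groups did not overlap, where 1.4% of genes did not overlap on CPM scaled by TMM (0.929% with aKO higher). It was chosen for this, so nothing is read from either count, nor from the settings in which it passed.

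In flowthrough Hebp2 had 5.21 and 2.69 CPM in WT 201 and 202, and 12.2 and 3.57 CPM in aKO 203 and 205. Only aKO 203 lay above both WT libraries, and the groups overlapped. The genotype difference was 1.203 (log2, SE 0.60, 95% interval -0.061 to 2.47) with an adjusted p of 0.804 in edgeR's quasi-likelihood test. It came to 0.16 without aKO 203 and to 1.71 without aKO 205. The interaction term, which asks whether the genotype difference is larger in astrocytes, was 1.58 (SE 0.74, adjusted p = 0.956 in edgeR), and its astrocyte side is the difference that chose the gene. Between fractions the same 4 brains gave log2 ratios of astrocytes over flowthrough of -0.36 and 0.44 in WT 201 and 202, and 1.49 and 2.30 in aKO 203 and 205. The fraction test gave 0.56 (SE 0.37, adjusted p = 0.317 in edgeR), and 0.28 (adjusted p = 0.660 in edgeR) without flowthrough aKO 205.

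Hebp1 gave another pattern. It had 32.4, 24.3 and 52.1 CPM in WT astrocytes and 16.1, 17.5, 37.6, 19.0 and 47.3 CPM in aKO astrocytes. The groups overlapped, and the 3 aKO libraries with the lowest values (203, 205 and 221) were below every WT library. The fitted difference was -0.45 (log2, SE 0.49), and 0.04 without WT 265. Flowthrough had 15.7 and 23.9 CPM in WT and 24.9 and 2.82 CPM in aKO, a difference of -0.28 (log2, SE 0.80, adjusted p = 0.934 in edgeR) that turned to 0.46 without aKO 205. Astrocytes over flowthrough was 0.79 (log2, SE 0.51, adjusted p = 0.305 in edgeR), with 1.85 (adjusted p = 0.0316 in edgeR) without flowthrough aKO 203 and 0.39 (adjusted p = 0.627 in edgeR) without flowthrough aKO 205. Across the 8 astrocyte libraries, Pearson's r between log2 CPM of both genes was -0.36, and it was 0.02 across all 12.

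**Figure D1:**
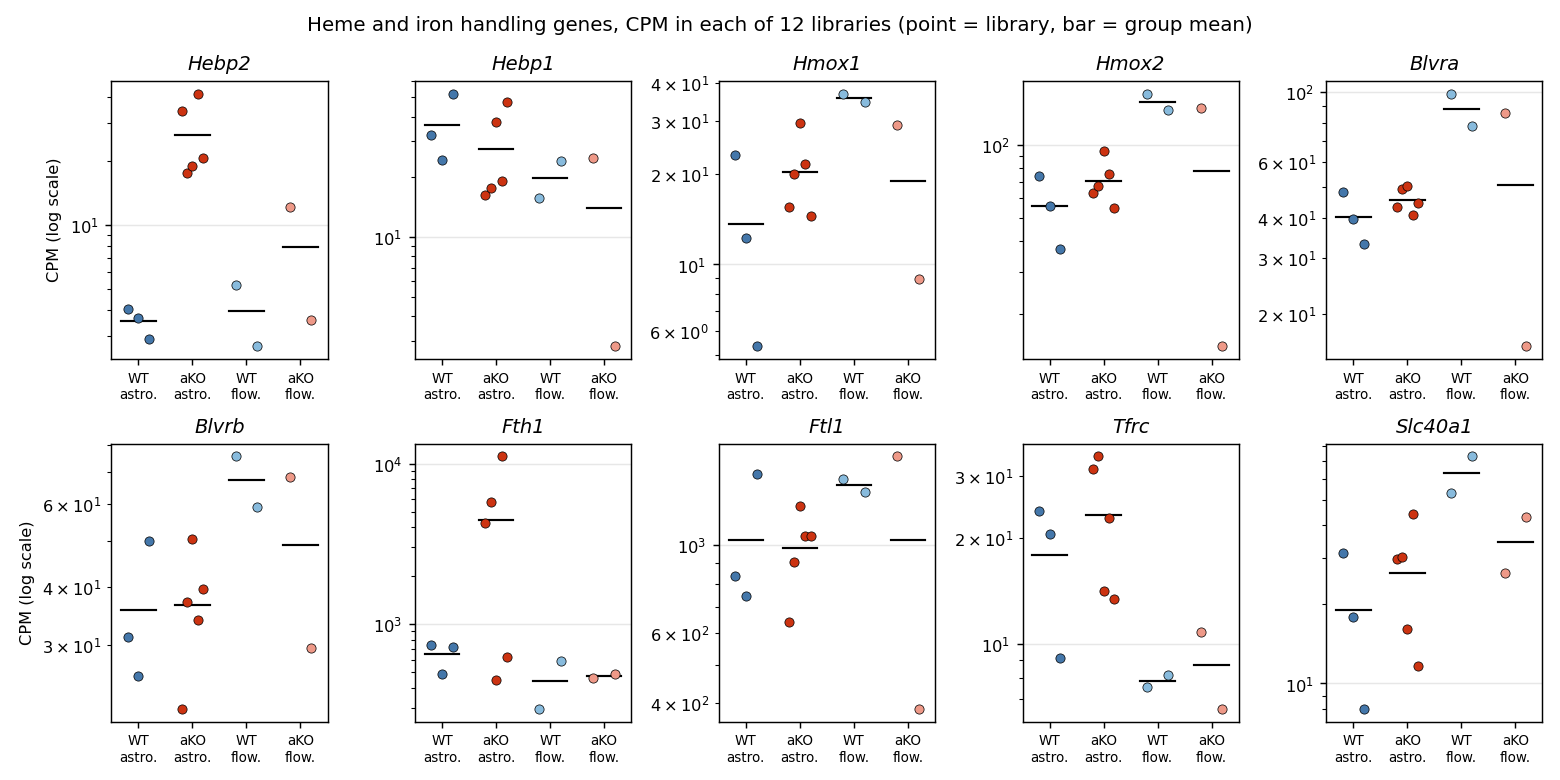
CPM (log axis, 1 panel per gene) in WT and aKO astrocytes and in WT and aKO flowthrough, where each point is a library and each bar a group mean. Hebp2 is the panel in which the 5 aKO astrocyte libraries (17.6 to 41.4 CPM) lie above the 3 WT libraries (2.93 to 4.05 CPM), and the lowest flowthrough point of several panels is aKO 205.

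For Hmox2, Blvra and Blvrb, 3 of the 4 flowthrough libraries had more CPM than any astrocyte library, but none of the heme oxygenases and biliverdin reductases passed the fraction test over 12 libraries. Hmox2, the constitutive heme oxygenase, lies on chromosome 16 from 4726361 to 4766742 and overlaps Cdip1 and Gm15859, whose reads may not be told apart since the strand setting of the counting is not given. It had 74.5, 55.6 and 37.2 CPM in WT astrocytes and 63.4, 67.5, 94.0, 75.6 and 54.6 CPM in aKO astrocytes, against 162 and 138 CPM in WT flowthrough and 141 and 14.7 CPM in aKO flowthrough. Of the 4 flowthrough libraries 3 lay above every astrocyte library, and aKO 205 lay below all of them. The fraction difference was -1.0004 (log2, SE 0.42, adjusted p = 0.112 in edgeR), and -1.40 (SE 0.32, adjusted p = 0.0120 in edgeR) without flowthrough aKO 205. It was 0.12 without flowthrough aKO 203, so each of these 2 libraries decides the value. Hmox1, the inducible heme oxygenase that BACH1 represses and NRF2 activates, had 23.2, 12.2 and 5.34 CPM in WT and 15.6, 20.0, 29.6, 21.5 and 14.4 CPM in aKO astrocytes. In flowthrough it had 37.0 and 34.8 CPM in WT and 29.0 and 8.93 CPM in aKO. Its fraction difference was -0.90 (log2, SE 0.36, adjusted p = 0.0937 in edgeR), and -1.16 (adjusted p = 0.0602 in edgeR) without flowthrough aKO 205. Only aKO 208 exceeded every WT astrocyte library in Hmox1.

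Blvra and Blvrb are the A and B forms of biliverdin reductase. Blvra (chromosome 2, 127070665 to 127097084) varied least of the 10 genes among astrocyte libraries, with 48.2, 39.7 and 33.2 CPM in WT and 43.4, 49.4, 50.5, 41.0 and 44.8 CPM in aKO. Flowthrough held 98.7 and 78.2 CPM in WT and 86.0 and 15.8 CPM in aKO. The difference between fractions was -0.86 (log2, SE 0.35, adjusted p = 0.106 in edgeR), and -1.20 (SE 0.30, adjusted p = 0.0175 in edgeR) without flowthrough aKO 205. Blvrb (chromosome 7, 27447978 to 27466144), which is abundant in red blood cells, had 31.3, 25.8 and 49.9 CPM in WT and 22.0, 37.0, 50.4, 34.0 and 39.5 CPM in aKO astrocytes. In flowthrough it had 75.6 and 58.9 CPM in WT and 68.4 and 29.6 CPM in aKO. Its difference was -0.88 (log2, SE 0.34, adjusted p = 0.0853 in edgeR), and -1.08 (adjusted p = 0.0706 in edgeR) without flowthrough aKO 205. In the 8 libraries of the 4 mice that gave both fractions Blvrb passed, at -1.29 (SE 0.34, adjusted p = 0.0175 in edgeR) with the mouse as a block. Without the block those libraries gave -1.33 (adjusted p = 0.0279 in edgeR). Counted with these, Blvrb passed in 4 of 21 other settings, at -1.33 to -0.58 over all of them.

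Within brains, the log2 ratio of astrocytes over flowthrough was -1.12, -1.31 and -1.16 for Hmox2 in mice 201, 202 and 203, and 2.20 in mouse 205. For Blvra it was -1.03, -0.98 and -0.99 in the same 3 mice and 1.64 in mouse 205. On plain CPM, which these ratios use, mouse 205 went the other way from the other 3 for Hmox1, Hmox2, Blvra, Blvrb and Ftl1 alike. On CPM scaled by TMM it still did so for Hmox1, Hmox2, Blvra and Ftl1. Blvrb in mouse 205 then went with the other 3, at 25.9 in astrocytes and 39.2 in flowthrough. Microglial, erythroid and leukocyte marker sums, given above, were higher in flowthrough, and their part in these differences was not tested.

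Ferritin is made of the heavy chain Fth1, which oxidizes iron, and the light chain Ftl1, which helps to form the mineral core. Fth1 lies on chromosome 19 from 9982703 to 9985092 (plus strand) and Ftl1 on chromosome 7 from 45457944 to 45459884 (minus strand), where it overlaps Gm22133 and Gm10252. Fth1, Ftl1, Slc40a1 and Tfrc are the 4 of the 10 genes with an iron-responsive element of the searched form, and the hairpins are shown because they are the control element that these 4 genes share. The search took a C, 5 bases, the loop CAGTGN with any final base but G, and 5 bases that pair with the first 5 (Watson-Crick or G with U). Each hairpin is printed 5′ to 3′ with its loop in capitals, from GENCODE transcripts on GRCm38.
Fth1, 5′ UTR, chr19:9982732-9982760, plus strand: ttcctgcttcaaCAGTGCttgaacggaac
Ftl1, 5′ UTR, chr7:45459779-45459807, minus strand: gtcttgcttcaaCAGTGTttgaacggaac
Slc40a1, 5′ UTR, chr1:45925465-45925493, minus strand: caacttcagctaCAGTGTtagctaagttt
Tfrc, 3′ UTR, chr16:32631219-32631247, plus strand: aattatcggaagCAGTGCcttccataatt
Tfrc, 3′ UTR, chr16:32631598-32631626, plus strand: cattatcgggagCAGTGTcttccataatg
Tfrc, 3′ UTR, chr16:32631663-32631691, plus strand: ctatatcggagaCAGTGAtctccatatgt
Tfrc, 3′ UTR, chr16:32631710-32631738, plus strand: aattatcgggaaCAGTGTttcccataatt

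In a 5′ UTR the bound hairpin holds back translation, and in the 3′ UTR of Tfrc it protects the messenger RNA from decay. The same search found the motif in the 5′ UTRs of 23 of 20899 genes (0.110%) and in the 3′ UTRs of 100 of 21685 genes (0.461%).

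Fth1 had 744, 491 and 720 CPM in WT astrocytes (201, 202 and 265). In aKO astrocytes it had 4242 CPM in 203, 5751 CPM in 205, 449 CPM in 208, 11095 CPM in 221 and 623 CPM in 222. So 3 of the 5 aKO libraries stood 5.70-fold, 7.73-fold and 14.9-fold above the highest WT library, and the other 2 lay within or below the WT range. The groups overlapped and the fitted difference was 2.52 (log2, SE 0.87), given as a description. Flowthrough held 295 and 591 CPM in WT and 461 and 490 CPM in aKO, so mice 203 and 205, which were high in the astrocyte fraction, were not high in flowthrough. The flowthrough genotype difference was 0.42 (log2, SE 1.01, adjusted p = 0.920 in edgeR). In library 221 Fth1 alone took 1.11% of all counts.

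Ftl1 was not high in those 3 libraries. It had 834, 744 and 1509 CPM in WT and 641, 909, 1253, 1053 and 1054 CPM in aKO astrocytes, a difference of -0.21 (log2, SE 0.49) that was 0.30 without WT 265. In flowthrough it had 1464 and 1363 CPM in WT and 1672 and 386 CPM in aKO. Per length, in deposited RPKM, the ratio of heavy to light chain was 1.38, 1.02 and 0.738 in WT astrocytes and 10.2, 9.79, 0.555, 16.3 and 0.915 in aKO astrocytes. Flowthrough ratios were 0.311 and 0.671 in WT, and 0.426 and 1.963 in aKO. The 3 astrocyte libraries with high Fth1 were thus the 3 with a ratio above 2 in any fraction.

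Ferritin genes have processed copies elsewhere in the genome. The processed pseudogene Gm6977, of which 21.2% of the 31-base words are also in Fth1, had 55.5, 40.9 and 70.0 CPM in aKO 203, 205 and 221 and 4.97 to 6.66 CPM in the other 5 astrocyte libraries, so it was high in the same 3 libraries. How the counting treated reads that match more than 1 place is not given in the sources used here. The 3 named Ftl1 pseudogenes held 2.80% to 4.85% of the counts of Ftl1 and its pseudogenes together. Oligodendrocyte markers, the summed level of a cell type known for its ferritin, were at 16859, 12246 and 21512 CPM in aKO 203, 205 and 221, at 10869 and 3423 CPM in aKO 208 and 222, and at 9078, 12334 and 3229 CPM in WT. The markers' part in the Fth1 level was not tested.

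Between fractions Fth1 gave 1.60 (log2, SE 0.67) for astrocytes over flowthrough, with an adjusted p of 0.111 in edgeR, and did not pass in 12 libraries or without flowthrough aKO 205 (1.68, adjusted p = 0.213 in edgeR). Of 21 other settings Fth1 passed in 5, at 1.23 to 1.83 over all of them. The same 4 brains gave log2 ratios of 1.34 and -0.27 in WT 201 and 202 and of 3.20 and 3.55 in aKO 203 and 205. In those 8 libraries alone it passed, at 1.61 with the mouse as a block (SE 0.40, adjusted p = 0.0130 in edgeR) and at 1.59 without (adjusted p = 0.0168 in edgeR). These are the 8 libraries that hold 2 of the 3 high values. Ftl1 gave -0.45 (SE 0.43, adjusted p = 0.491 in edgeR), and -0.77 (adjusted p = 0.252 in edgeR) without flowthrough aKO 205.

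**Figure D2:**
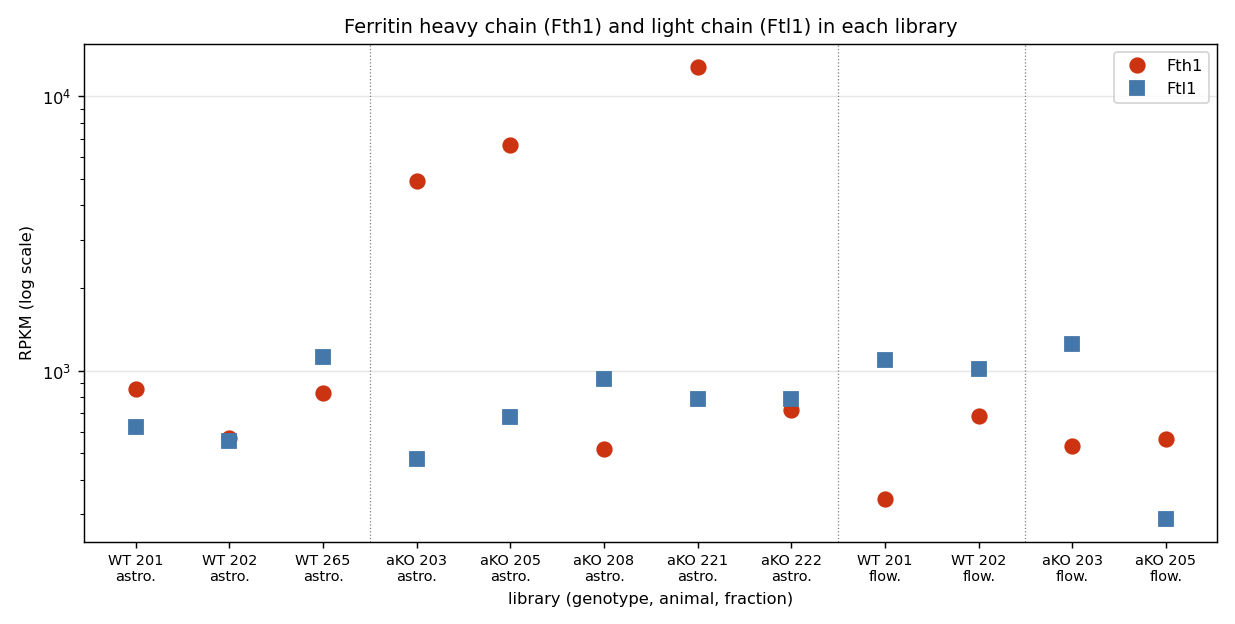
RPKM (log axis) of the ferritin heavy chain Fth1 (circles) and light chain Ftl1 (squares) in each of the 12 libraries, named by genotype, animal and fraction. Fth1 stands apart in astrocyte libraries aKO 203, 205 and 221 (4899, 6641 and 12811 RPKM), while Ftl1 stays between 288 and 1248 RPKM in all 12.

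Of the 10 genes, Tfrc and Slc40a1 passed the fraction test, against 17% of the 20637 genes tested (8.52% higher and 8.52% lower in astrocytes), so the share among the 10 was near that of all genes. Tfrc, the transferrin receptor that brings iron in (chromosome 16, 32608920 to 32632794), was higher in astrocytes. It had 23.9, 20.6 and 9.16 CPM in WT and 31.5, 34.2, 14.2, 22.9 and 13.4 CPM in aKO astrocytes, against 7.55 and 8.18 CPM in WT and 10.9 and 6.54 CPM in aKO flowthrough. Of the 8 astrocyte libraries 7 lay above all 4 flowthrough libraries, and WT 265 lay within their range. The difference was 1.03 (log2, SE 0.32, adjusted p = 0.0352 in edgeR), or 2.04-fold, and the 4 brains gave log2 ratios of 1.66, 1.33, 1.54 and 2.38. It passed in 12 of 21 other settings, at 0.92 to 1.39 over all of them. The call was lost without any 1 of the 4 flowthrough libraries or of astrocyte libraries WT 201, WT 202, aKO 203 and aKO 221, and with library 202 as aKO (adjusted p from 0.0523 to 0.134 in edgeR). Without flowthrough aKO 205 it was 0.93 (adjusted p = 0.134 in edgeR). In the 8 libraries of the 4 mice it was 1.39 with the mouse as a block (adjusted p = 0.00385 in edgeR).

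Slc40a1, ferroportin, the exporter through which iron leaves the cell (chromosome 1, 45908068 to 45926523), was lower in astrocytes. Astrocytes held 31.4, 18.0 and 7.99 CPM in WT and 29.7, 30.3, 16.1, 44.1 and 11.7 CPM in aKO, and flowthrough 53.0 and 73.1 CPM in WT and 26.3 and 43.0 CPM in aKO. On plain CPM both WT flowthrough libraries lay above all 8 astrocyte libraries, and the aKO flowthrough libraries lay within the astrocyte range. On CPM scaled by TMM, flowthrough aKO 205 (57.1) also lay above every astrocyte library, of which aKO 221 was highest at 38.4. Flowthrough aKO 203 (30.7) stayed within the astrocyte range. The difference was -1.36 (log2, SE 0.35, adjusted p = 0.0144 in edgeR), or 2.56-fold lower. It passed in 20 of 21 other settings and was lost without flowthrough aKO 205, at -1.08 (adjusted p = 0.0915 in edgeR). Within brains the log2 ratios of plain CPM were -0.76 and -2.02 in WT 201 and 202, and 0.17 and -0.50 in aKO 203 and 205. Mouse 203 thus did not share the direction on plain CPM. It did on CPM scaled by TMM, with 26.8 in astrocytes and 30.7 in flowthrough. Border macrophages, a cell type rich in ferroportin, had marker sums of 49.9 to 320 CPM in astrocytes and 177 to 262 CPM in flowthrough, and 0 of their 7 markers differed. The part of the erythroid and microglial sums in the Slc40a1 difference was not tested.

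**Figure D3:**
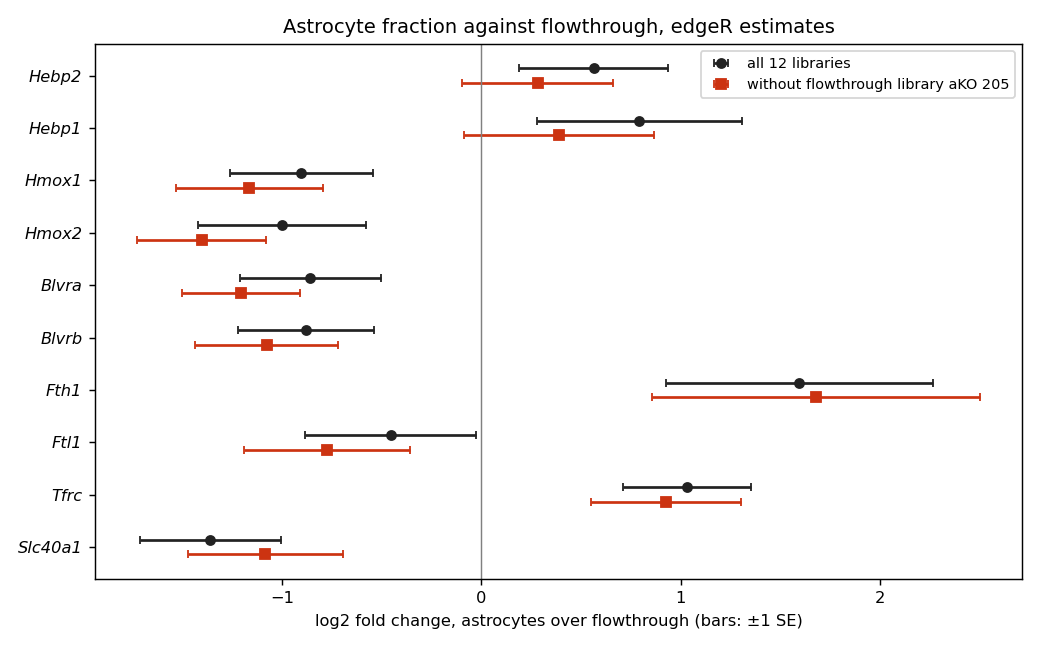
Log2 fold change of astrocytes over flowthrough for each of the 10 genes (edgeR, bars are 1 SE to each side) from all 12 libraries (circles) and without flowthrough aKO 205 (squares). Tfrc (1.03) and Slc40a1 (-1.36) passed in 12 libraries, and without aKO 205 Hmox2 (-1.40) and Blvra (-1.20) passed instead.

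Neither gene moved clearly with genotype in astrocytes, where the differences were 0.23 (log2, SE 0.36) for Tfrc and 0.36 (SE 0.41) for Slc40a1. In flowthrough 0 of the 10 genes passed, as did 0% of the 20637 genes tested by edgeR's quasi-likelihood test, with 817 at an unadjusted p under 0.05 and 0 called by DESeq2. On the TMM scale, which adjusts library totals for composition, Tfrc was at 8.24 and 7.82 in WT and 12.7 and 8.68 in aKO flowthrough. Slc40a1 on that scale was at 57.8 and 69.8 in WT and 30.7 and 57.1 in aKO, so neither gene's groups overlapped. On plain CPM, given above, Tfrc in aKO 205 was below both WT libraries and the groups overlapped, whereas those of Hmox1 overlapped on the TMM scale only. Of all genes on the TMM scale 33.6% had no overlap between these groups of 2, 20% with aKO higher and 13.6% with aKO lower. Their differences were 0.41 (SE 0.50, adjusted p = 0.837 in edgeR) and -0.54 (SE 0.59, adjusted p = 0.827 in edgeR). Hmox1, Hmox2 and Blvra gave -0.69 (SE 0.59), -0.74 (SE 0.70) and -0.59 (SE 0.59). Blvrb and Ftl1 gave -0.22 (SE 0.56) and -0.23 (SE 0.70). Without aKO 205 the values of Hebp1, Hmox2, Blvra, Blvrb and Ftl1 turned to between 0.019 and 0.46. Hmox1 and Slc40a1 stayed below 0, at -0.20 and -1.13, and Fth1 and Tfrc above 0, at 0.199 and 0.58. None of these passed (adjusted p of 1 in edgeR).

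**Figure D4:**
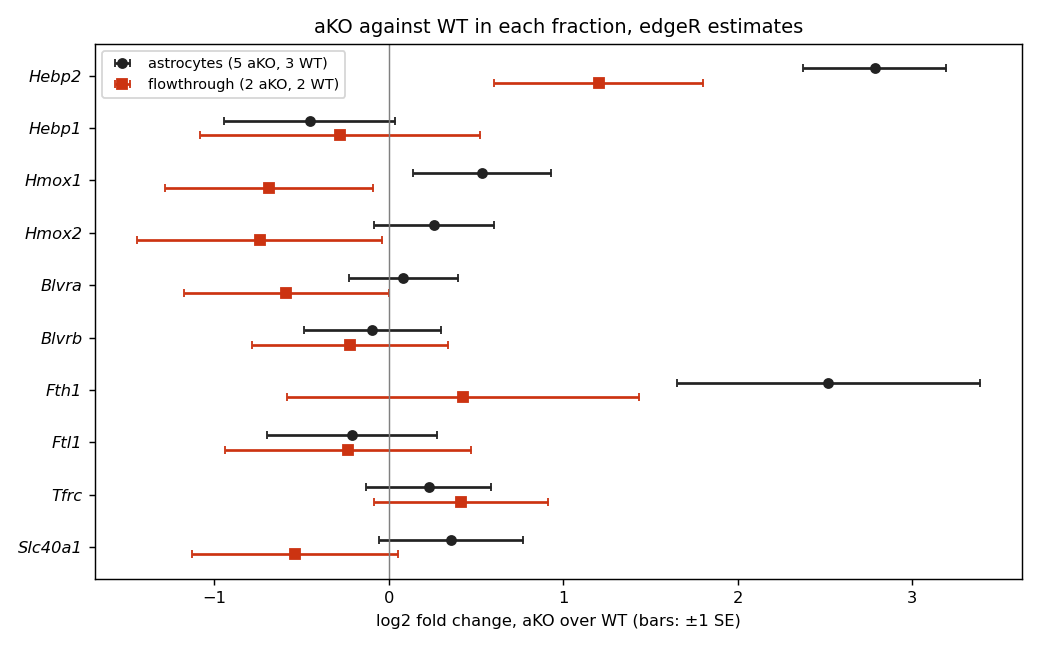
Log2 fold change of aKO over WT for each of the 10 genes (edgeR, bars are 1 SE to each side) in astrocytes (circles, 5 aKO and 3 WT libraries) and flowthrough (squares, 2 and 2). The astrocyte values are a description because that comparison chose Hebp2 (2.78), and 0 of the 10 genes passed in flowthrough.

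On the scale of RPKM, which divides by gene length, both ferritin chains were far above the other 8 genes. Median levels in astrocytes were 845 for Fth1, 732 for Ftl1, 29.5 for Hmox2, 26.7 for Hebp1, 25.1 for Blvrb, 18.0 for Blvra, 9.56 for Hebp2, 8.24 for Hmox1, 3.51 for Tfrc and 2.65 for Slc40a1. In flowthrough the order was Ftl1 at 1055, Fth1 at 549, Hmox2 at 63.1, Blvrb at 45.0, Blvra at 33.6, Hebp1 at 18.6, Hmox1 at 14.8, Slc40a1 at 5.33, Hebp2 at 2.30 and Tfrc at 1.27. Neighbours in either order had overlapping ranges over libraries, except the lower ferritin chain and Hmox2. Hebp2 was seventh in astrocytes over all mice, but between 1.53 and 2.12 RPKM in WT and between 9.22 and 21.7 RPKM in aKO.

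The genes whose log2 CPM followed that of Hebp2 most closely were taken from 8406 other genes with a mean log2 CPM of at least 3 over all 12 libraries. They were Cdkn1a, a cell cycle inhibitor (r = 0.92), Fabp7, a brain fatty acid binding protein (r = 0.83), Rnf144b (r = 0.77), Jcad (r = 0.76) and Tma16 (r = 0.76). Cdkn1a had 16.002 to 24.5 CPM in WT astrocytes, 75.7 to 132 CPM in aKO astrocytes and 20.1 to 46.7 CPM in flowthrough. Over the 8 astrocyte libraries alone the closest were the chemokine Cxcl5 (r = 0.96), the endothelin Edn1 (r = 0.96), Cdkn1a (r = 0.95), Fabp7 (r = 0.95) and Actb (r = 0.92). These points share libraries and genotypes, so the values are a description.

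Beyond the 10 genes, 63 others in 6 lists of the same pathways were examined, and 61 of them passed the count filter. Between fractions 13 of the 61 passed edgeR's test, 4 higher and 9 lower in astrocytes, with a median of 0.09 (log2) against 0.07 over all genes and 17% of all genes called. Without flowthrough aKO 205, 7 of 62 passed, 1 higher and 6 lower, with 9.59% of all genes called, and all 7 were among the 13. Of the genes named below, Alas2, Hp, Lcn2, Slc7a11, Nfe2l2 and Bach1 passed without it. Hpx, Slc48a1, Heph, Slc25a37, Iscu and Hfe did not, with differences of 1.73, 1.38, 1.13, -0.86, -0.95 and -1.203 (adjusted p from 0.0636 to 0.132 in edgeR). In flowthrough 0 of 61 differed by genotype, and in astrocytes 0 of 59.

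Among the heme synthesis enzymes Alas2, the erythroid form of the first enzyme, was lower in astrocytes (-3.23, SE 0.70, adjusted p = 0.00550 in edgeR). Alas2 ran from 1.48 to 18.0 CPM in astrocytes and from 4.91 to 117 CPM in flowthrough. Alas1, which makes the same first step in most other cells, gave 0.34 (SE 0.45). Alas2 is also one of the erythroid markers, which were lower in astrocytes.

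Among 13 heme transport and scavenging genes, 2 were higher and 1 lower in astrocytes. Hpx, which encodes the heme scavenger hemopexin, had 1.29 to 4.56 CPM in astrocytes and 0.0909 to 0.910 CPM in flowthrough, with no overlap (2.11, SE 0.57, adjusted p = 0.0176 in edgeR). Slc48a1, a heme transporter of the lysosome, was 1.28 higher (SE 0.40, adjusted p = 0.0384 in edgeR). Hp, which encodes the hemoglobin-binding haptoglobin, had 6.52 to 16.9 CPM in astrocytes and 9.57 to 141 CPM in flowthrough (-3.37, SE 0.47, adjusted p = 0.000107 in edgeR).

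Of 12 genes for iron uptake and export, Heph was higher and Lcn2 lower in astrocytes. Heph encodes hephaestin, a ferroxidase that works with ferroportin, and had 5.83 to 19.1 CPM in astrocytes and 1.33 to 5.91 CPM in flowthrough (1.39, SE 0.42, adjusted p = 0.0310 in edgeR). Lcn2, lipocalin 2, which binds iron-loaded siderophores and is stored in neutrophil granules, had 6.27 to 34.3 CPM in astrocytes and 75.6 to 301 CPM in flowthrough (-3.40, SE 0.48, adjusted p = 0.000122 in edgeR). Of 8 genes tested for iron storage, chaperones and mitochondrial iron, the mitochondrial iron importer Slc25a37 (-1.19, SE 0.30, adjusted p = 0.0121 in edgeR) and the iron-sulfur scaffold Iscu (-1.03, SE 0.32, adjusted p = 0.0375 in edgeR) were lower. Of 8 genes tested for iron sensing, Hfe was lower (-1.11, SE 0.37, adjusted p = 0.0478 in edgeR).

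In the list of 11 genes of NRF2 and BACH1, the factors that set Hmox1 transcription, 1 was higher and 2 lower in astrocytes. Slc7a11, the cystine transporter, had 29.2 to 105 CPM in astrocytes and 3.91 to 13.7 CPM in flowthrough (2.32, SE 0.36, adjusted p = 0.000294 in edgeR). Nfe2l2, which encodes NRF2, had 58.4 to 151 CPM in astrocytes and 134 to 282 CPM in flowthrough (-1.28, SE 0.32, adjusted p = 0.0104 in edgeR). Bach1 had 3.79 to 11.8 CPM in astrocytes and 9.99 to 15.8 CPM in flowthrough (-1.25, SE 0.28, adjusted p = 0.00530 in edgeR). The part of the higher microglial, leukocyte and erythroid marker sums of flowthrough in these fraction differences was not tested.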

How the data were processed

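Per the file headers, the deposited tables give a read count, CPM and RPKM for each Ensembl gene of each library, all computed by the authors. The tools named in the submitters' processing notes are featureCounts 1.4.6-p5 and Subread, STAR 2.5.1a and bcl2fastq, with the genome GRCm38. The strand setting, annotation release and treatment of reads with several matches are not given in the sources used here. Dividing each count by its library total gave the deposited CPM back. Deposited RPKM served only to compare levels between genes. Samples were grouped by title, and nothing but the number in a title marks a separate animal.

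Counts were tested with edgeR 4.0.16 (R 4.3.3) by its quasi-likelihood test, TMM normalization and filterByExpr (minimum count 10, minimum total 15), with two-sided p-values adjusted over all genes by Benjamini-Hochberg and a threshold of 0.05. The astrocyte genotype comparison used 8 libraries. The others came from 1 fit of 4 groups to all 12 libraries, with both genotypes weighted equally between fractions. Each SE was obtained from the log2 fold change and the root of its F statistic, and the 95% interval from the t quantile at the degrees of freedom of the test. Correlations used log2 CPM with a prior count of 2. In simulated data with 4-fold changes, 35% of changed genes were called in astrocytes (18950 genes), 0% in flowthrough and 61% between fractions (20637 genes each). With 2-fold changes these were 0%, 0% and 2%. Only 100 genes were changed at each fold, all upward, whereas 3517 genes were called between fractions in the data, in both directions. The simulated shares for the fraction test may therefore not carry over to the data.

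The 10 genes, the 6 pathway lists and the 10 marker lists were chosen with earlier results of these data known. Of 139 distinct list symbols 1 (Ahsp) was not matched. Genes named beyond the 10 were those that passed the fraction test in the pathway lists, Alas1, and the 5 most like Hebp2. Not every result that this rule names is reported here. Gm6977, Gapdh and Ttr were chosen after their values were seen. Alternatives were DESeq2's size factors, DESeq2 1.42.0, limma voom (limma 3.58.1), no count filter, 1 fit of all libraries, a block for the mouse, leaving out each library and 2 pairs of libraries, and counting library 202 as aKO. Flowthrough and astrocyte libraries of a number come from the same brain, and their deviations from group means correlated with r of 0.0823, 0.424, 0.166 and 0.404 in mice 201, 202, 203 and 205. Pairs from different mice ran from -0.424 to 0.312. With 2 flowthrough libraries a group, their deviations mirror each other, so these values do not show the pairing.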

Additional observations from a re-analysis of the deposited data

How the results depend on the processing

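The 3 genotype and fraction comparisons were recomputed under up to 21 alternatives each. In astrocytes 5 genes differed by genotype. There were 8 without a count filter, 14 with DESeq2, 3 without aKO 222 and WT 265, 1 with all libraries in 1 fit and 0 with library 202 as aKO (803 at an unadjusted p under 0.05). Leaving out 1 library gave 0 to 5, with 0 without WT 201 (401 at an unadjusted p under 0.05), 3 without WT 265 and 2 without aKO 205. Hebp2 stayed higher in aKO astrocytes in all 16 alternatives and passed in 8. It was chosen by this difference in these same libraries, so these counts are a description only.

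In flowthrough 0 genes differed, 45 without a count filter and 0 to 1 with 1 library left out (1 without WT 201). Between fractions 3517 genes differed, and 1691 to 4107 with 1 library left out, the lowest without flowthrough WT 201 and 2136 without flowthrough aKO 205. Of the 10 genes 2 passed, and 1 to 3 with 1 library left out, and 1 with library 202 as aKO. With the mouse as a replicate block in the 8 paired libraries 5951 genes and 4 of the 10 passed. The same libraries without the block gave 3562 genes and also 4 of the 10. Shares of all genes called are not given for these settings, so no count among the 10 is read as a result about them.

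Directions turned only for differences that did not pass. With 1 library left out, the astrocyte genotype difference ran from -0.90 to 0.035 for Hebp1, -0.015 to 0.15 for Blvra, -0.26 to 0.35 for Blvrb, -0.39 to 0.30 for Ftl1 and -0.040 to 0.44 for Tfrc. Without WT 265 the signs of Hebp1, Blvrb, Ftl1 and Tfrc turned. Without aKO 222 and WT 265 Blvra was -0.060, Blvrb 0.21 and Ftl1 0.17. The flowthrough genotype difference ran from -2.46 to 0.46 for Hebp1, -3.02 to 0.019 for Hmox2, -2.16 to 0.061 for Blvra, -0.86 to 0.12 for Blvrb and -1.54 to 0.35 for Ftl1, the lowest without aKO 203 and the highest without aKO 205. The fraction difference ran from -1.40 to 0.12 for Hmox2 and from -0.77 to 0.17 for Ftl1, the highest without flowthrough aKO 203. The causes were not tested. In simulated data the flowthrough comparison called 0% of 4-fold changes, so missing calls there say little.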
